A study of Mus musculus with 10 samples.

Results

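The 38 genes described here are interferon-stimulated genes of the mouse, taken by symbol from the 53167 rows of a count table of cultured mammary epithelial cells. All 38 were found (Rigi under its older symbol Ddx58), and all 38 were among the 14415 genes that passed the filter on low counts. Primary epithelial cells from the mammary gland of wild-type mice were grown in serum-containing medium, with biglycan protein (BGN, an extracellular matrix proteoglycan) at 100 ng/mL in 5 samples (BGN) and with no added protein in 5 (Control). The labels give neither the time of exposure, nor the number of animals, nor a vehicle for the Control samples, so the spread between replicates may be technical. The members were picked with the BGN against Control values of these same libraries known, so those values are given as a description and are not evidence of a response.

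Interferons are secreted proteins that warn cells of infection. Type I interferons bind a receptor made of Ifnar1 and Ifnar2, the kinases Jak1 and Tyk2 are then activated, and a complex that contains Stat2 and Irf9 binds the interferon-stimulated response element (ISRE) in the promoters of many interferon-stimulated genes. Many of these genes are transcribed at a low level without infection, kept up by traces of interferon, and this resting level is known to differ between cultures and tissues.

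Between 18292624 and 21820560 reads were counted per library. Most epithelial markers were abundant: the 6 luminal markers summed to between 3593 and 3865 CPM (counts scaled to library size, here to library totals) in BGN and between 3724 and 4209 CPM in Control, and the 6 basal markers to between 5298 and 5549.9 CPM in BGN and between 5217 and 6450.2 CPM in Control. Krt14 (3633 CPM on average) and Krt5 (1512) gave most of the basal sum. Trp63 was at 208 CPM, Oxtr at 166, Acta2 at 27.6 and Myh11 at only 0.201. Of the immune markers, some were at or near 0 and others were present: over all 10 libraries together, Ptprc and Itgam had 2 counts each and Adgre1 and Siglech had 0. The 13 myeloid markers summed to between 405 and 436 CPM in BGN and between 401 and 467 CPM in Control, of which Cd14, which epithelial cells can also express, gave 402 CPM on average, Cd163 17.3, Cd68 1.65 and Csf1r 1.26. The 12 lymphocyte markers summed to at most 0.219 CPM in BGN and 0.109 CPM in Control, and 8 of the 12 had 0 counts. The 6 markers listed for plasmacytoid dendritic cells summed to between 182 and 198 CPM in BGN and between 168 and 191 CPM in Control, from Tcf4 (128 CPM), Bcl11a (48.1) and Il3ra (6.29), with Siglech and Klk1 at 0. The 10 endothelial markers summed to between 18.2 and 22.3 CPM in BGN and between 20.8 and 22.5 CPM in Control, and the 10 fibroblast markers to between 46.4 and 52.7 CPM in BGN and between 40.6 and 59.8 CPM in Control. Few genes carried these sums. Of the endothelial markers, Flt1 averaged 15.1 CPM and Pecam1 5.25, with Vwf next at 0.337 and Cldn5 at 0. Of the fibroblast markers, Pdgfra averaged 38.7 CPM, Col1a1 4.42 and Dcn 2.63, with Pdgfrb next at 0.611 and Dpt at 0. In bulk RNA, fewer cells of a type and less RNA per cell cannot be told apart. Mitochondrially encoded genes took 1.16% of counts in Control replicate 5, where the other 9 libraries lay between 1.80% and 2.27%.

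The motif that the complex with Stat2 and Irf9 recognises was found in the promoters of 15 members. RefSeq promoter windows of 300 bases (250 before to 50 after the start site, build GRCm38.p6) were found for 30 of the 38 members; Zbp1, Usp18, Parp9, Parp14, Oas2, Mx1, Mx2 and Rtp4 were not matched. The ISRE core, taken as GAAA, any 2 bases and GAAA again and searched on both strands (TTTC, any 2 bases, TTTC on the other), was present in 15 of the 30 (50% of members, against 3.99% of the 27025 genes in the promoter table and 3.56% of the 10527 that were also tested). The palindromic STAT dimer motif TTCNNNGAA was present in 7 of the 30 (23.3%), against 9.55% of all genes in the table; only in Bst2 did it overlap an ISRE core. A match of letters is a description and not a site shown to be bound. The stretches below, all upstream of the start site and with the ISRE cores in capitals, are those of 7 members described later, shown because most of these members vary widely between libraries. They lie at chr4:156200855-156200916 (minus strand), chr19:34640765-34640833 (plus strand), chr19:34583353-34583436 (plus strand), chr5:120777705-120777754 (minus strand), chr12:26456543-26456592 (minus strand), chr3:142620584-142620633 (plus strand) and chr5:92349073-92349122 (minus strand).
Isg15: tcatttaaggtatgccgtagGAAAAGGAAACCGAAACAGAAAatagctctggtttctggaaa
Ifit1: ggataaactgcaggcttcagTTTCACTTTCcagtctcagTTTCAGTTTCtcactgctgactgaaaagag
Ifit3: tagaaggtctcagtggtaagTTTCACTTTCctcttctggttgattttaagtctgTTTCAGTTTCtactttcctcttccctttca
Oas3: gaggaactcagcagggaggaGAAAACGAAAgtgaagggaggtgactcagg
Rsad2: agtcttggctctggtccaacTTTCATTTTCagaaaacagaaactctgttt
Gbp2: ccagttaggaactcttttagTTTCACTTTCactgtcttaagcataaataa
Cxcl10: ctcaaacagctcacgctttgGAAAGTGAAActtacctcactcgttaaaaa
In Isg15, 3 cores overlapped each other as a run of GAAA repeats, whereas Ifit1 and Ifit3 each held 2 separate cores on the opposite strand.

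Transcripts of all 38 members were counted in both groups, over a range of about 2 orders of magnitude per transcript length. Per kilobase of exon (exons merged per gene in GENCODE M21, so genes with many annotated isoforms are underestimated), the mean over the 10 libraries ran from 0.400 CPM per kb for Oas3 to 42.1 for Rtp4, a chaperone of receptors at the cell surface. Bst2, also called tetherin, which holds budding viruses to the cell membrane, followed at 41.5 CPM per kb. Parp9, which ADP-ribosylates ubiquitin together with its partner Dtx3l, was at 37.4, and Trim25, the ubiquitin ligase that activates Rigi, at 32.01. Isg15, a ubiquitin-like protein attached to other proteins after interferon, stood at 20.1 CPM per kb, Ifit1 at 11.9, Irf7 at 11.5 and Oasl2 at 10.5. Rsad2 (viperin) was at 2.32 CPM per kb, and the members next to Oas3 at the low end were Mx2 at 0.830, Oas2 at 0.766 and Mx1 at 0.734.

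Counts assigned to the interferon genes themselves were next to absent. Of 18 interferon ligand genes, 12 had 0 counts in all 10 libraries together, and all 18 together had 24 counts. For a gene with 0 counts this allows up to 0.0153 CPM (3 counts over all libraries, counting error only). The limit does not cover reads shared between close gene copies, such as the Ifna genes, which may have been left uncounted. Ifnb1, the interferon most cells make first, had 2 counts. The receptors were present: Ifnar1 averaged 89.3 ± 6.004 CPM in BGN libraries, against 89.2 ± 3.84 CPM in Control libraries, Ifnar2 56.6 ± 3.04 CPM in BGN libraries, against 55.3 ± 1.91 CPM in Control libraries, and Ifnlr1, the epithelial receptor chain for type III interferon, 32.95 ± 2.48 CPM in BGN libraries, against 29.97 ± 0.857 CPM in Control libraries (SD, n = 5 each, as for all group values).

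No member passed the test between BGN and Control. In the fit over all 14415 genes, 0% of genes and 0 of the 38 members were called at a threshold of 0.05 after Benjamini-Hochberg adjustment of the p-values of edgeR's quasi-likelihood test; the lowest adjusted p of a member was 0.945. DESeq2 and limma-voom called 0 as well. Before adjustment, 3 members (Oas3, Psmb8 and Gbp2) had a p under 0.05 and were lower in BGN, where 2.38% of all tested genes were lower and 2.43% higher by that rule. Those 3 became 19 without BGN replicate 2, 21 without Control replicate 5 and 1 without Control replicate 2. How many of all tested genes had such a p in these settings is not given here. The estimates nevertheless lay on one side: 37 of 38 log2 fold changes (BGN over Control) were below 0, with a median of -0.20, where 52% of all tested genes were below 0 and their median was -0.0040. For 17 members the estimate was under -0.25, against 3.85% of all tested genes. Because the members were picked with this contrast known and vary together between libraries, these counts do not add up as separate observations. The median was -0.33 without BGN replicate 2, -0.30 without Control replicate 5 and -0.13 without Control replicate 2. The CPM ranges of BGN and Control overlapped for all 38 members, where 0.354% of all tested genes were lower in BGN with no overlap. For 30 of 38 members the gap between the mean log2 CPM of both groups was smaller than the within-group SD. The share of all tested genes with such a gap was not computed, so this count does not show that the members differed unusually little.

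**Figure D1:**
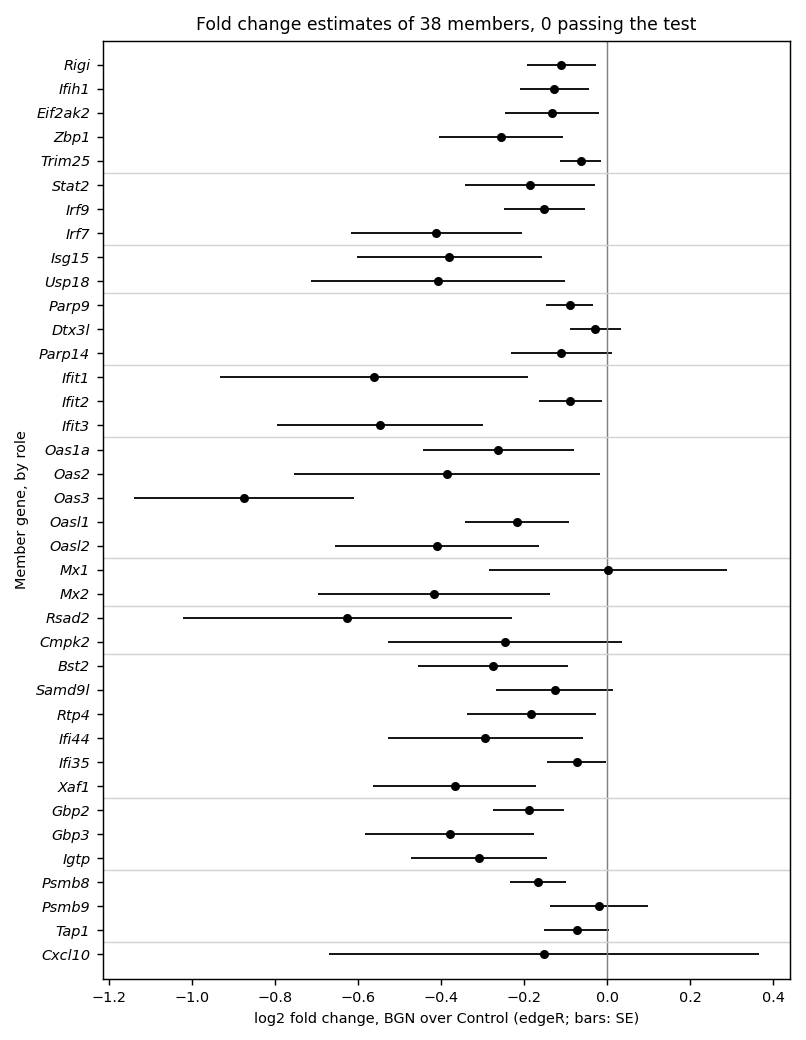
Log2 fold change of BGN over Control (horizontal axis, edgeR estimate with its SE as bar) for the 38 members, grouped by role from top to bottom. Of the 38 estimates 37 lie below 0, from -0.88 for Oas3 to -0.020 for Psmb9, Mx1 lies at 0.0020, and 0 passed the adjusted threshold.

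The spread between single libraries was larger than that between the groups. A library's deviation, averaging over the 38 members how far its log2 CPM lay from the average of that gene in all 10, was -0.24, 0.31, -0.069, -0.32 and -0.29 in BGN replicates 1 to 5, against 0.039, 0.43, 0.26, 0.19 and -0.30 in Control replicates 1 to 5. BGN replicate 2 lay with the higher Control libraries and Control replicate 5 with the lower BGN libraries, so the groups overlapped; the group means differed by -0.24, against a within-group SD of 0.27. Control replicate 2 was among the 2 highest libraries for 30 of 38 members, Control replicate 3 for 21 and BGN replicate 2 for 15. Control replicate 5 was among the 3 lowest for 30 members, BGN replicate 4 for 27, BGN replicate 5 for 25 and BGN replicate 1 for 22. Control replicate 5 is also the library with the low mitochondrial share and with the highest luminal, basal, myeloid and fibroblast marker sums (4209, 6450.2, 467 and 59.8 CPM). BGN replicate 2 had the highest lymphocyte and plasmacytoid dendritic cell marker sums (0.219 and 198 CPM), next to 0.183 CPM in BGN replicate 5 and 191 CPM in Control replicate 2. The lymphocyte sums rest on very few counts: Trac, the most abundant of these markers, had 8 counts over all 10 libraries. Tcf4 and Bcl11a gave most of the plasmacytoid sum, with Siglech at 0. The part of the mitochondrial share and these marker sums in the position of either library was not tested. Control replicate 1, whose share of ribosomal protein genes (4.33%) was the highest, next to 4.28% in Control replicate 5 and 3.70% to 3.85% in the other 8 libraries, had a member deviation of 0.039.

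**Figure D2:**
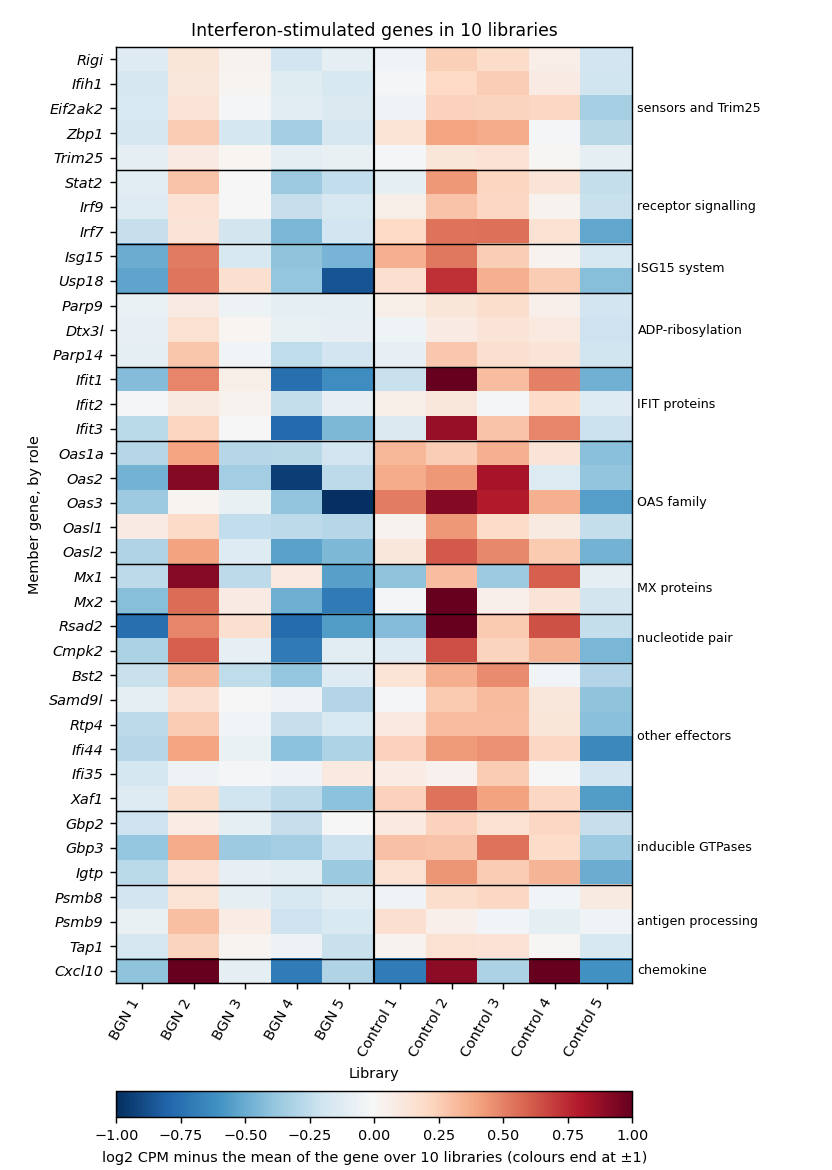
Each row is a member, by role, and each column a library, BGN to the left of Control; the colour is the log2 CPM relative to the average of that gene in all 10, ending at 1 in either direction. The red columns are BGN replicate 2 and Control replicates 2 to 4, and the blue ones BGN replicates 1, 4 and 5 and Control replicate 5.

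The 4 cytosolic sensors and Trim25 had within-group SDs of log2 CPM between 0.090 and 0.25. Trim25 was at 172, 194, 186, 173 and 175 CPM in BGN replicates 1 to 5, against 181, 200.1, 203, 185 and 171 CPM in Control replicates 1 to 5. The values of the groups were interleaved, with a log2 fold change of -0.064 ± 0.049 (SE, as for all fold changes given with ±). Rigi, the helicase RIG-I that detects viral RNA, was at 139.8 ± 12.6 CPM in BGN libraries, against 151 ± 17.8 CPM in Control libraries (log2 fold change -0.11). Ifih1, the related RNA sensor MDA5, was at 87.1 ± 7.69 CPM in BGN libraries, against 95.05 ± 11.5 CPM in Control libraries (log2 fold change -0.13). Eif2ak2, the kinase PKR that halts translation on double-stranded RNA, had a log2 fold change of -0.13, and Zbp1, a sensor of Z-form nucleic acid that can trigger cell death, of -0.26. All 5 estimates were below 0, with a median of -0.13, and each of the 5 varied between libraries with the other members at a Pearson r between 0.91 and 0.95 (10 libraries, group means removed, described further on).

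The 3 transducers of the receptor signal varied between libraries with the other members, at an r between 0.88 and 0.96. Irf9 was at 68.3, 82.5, 74.8, 63.4 and 66.9 CPM in BGN replicates 1 to 5, against 77.8, 91.02, 86.2, 76.3 and 63.8 CPM in Control replicates 1 to 5. BGN replicate 2 stood above 3 of the 5 Control libraries, and the log2 fold change was -0.15 ± 0.098. Its exons overlap those of the neighbouring Rnf31 on the same strand in the annotation, so some of its reads may have been left uncounted or be shared. Irf7, the factor that amplifies interferon production, was at 35.8, 45.98, 36.96, 30.7 and 36.8 CPM in BGN replicates 1 to 5, against 48.2, 61.4, 61.5, 46.8 and 29.2 CPM in Control replicates 1 to 5. Of the 5 Control values 4 exceeded every BGN value, and Control replicate 5 was the lowest of all 10, at a log2 fold change of -0.41 ± 0.21; Irf7 exons overlap Phrf1 on the opposite strand, and the strand setting of the counting is not given in the sources used here. Stat2 had 34.5 ± 6.19 CPM in BGN libraries, against 39.1 ± 7.17 CPM in Control libraries, with an r of 0.96.

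Isg15 and the protease that removes it, Usp18, had similar estimates below 0. Isg15 was at 10.4, 21.1, 13.1, 11.1 and 10.6 CPM in BGN replicates 1 to 5, against 18.9, 21.2, 17.4, 15.1 and 13.2 CPM in Control replicates 1 to 5. BGN replicate 2 reached the top of the Control range while the other 4 BGN libraries lay below the lowest Control library, which gave a log2 fold change of -0.38 ± 0.22. Usp18, also a brake on the type I receptor, had 12.8 ± 5.15 CPM in BGN libraries, against 16.9 ± 4.65 CPM in Control libraries (log2 fold change -0.41 ± 0.31), with a ratio of 3.05 between its highest and lowest library. The ADP-ribosylation genes were steadier. Parp9 was at 173, 192, 176, 170.03 and 171 CPM in BGN replicates 1 to 5, against 189, 198, 205, 188 and 159 CPM in Control replicates 1 to 5. Only Control replicate 5 lay below the BGN range, and the log2 fold change was -0.090 ± 0.057. Dtx3l, which overlaps Parp9 head to head on the opposite strand, had a log2 fold change of -0.030, and Parp14, a further ADP-ribosyltransferase, of -0.11.

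The IFIT proteins bind viral RNA and block its translation. Ifit1 was at 21.5, 40.8, 30.3, 17.2 and 18.8 CPM in BGN replicates 1 to 5, against 24.9, 65.1, 35.9, 41.2 and 20.7 CPM in Control replicates 1 to 5. The highest library, Control replicate 2, had 3.78 times the lowest, BGN replicate 4, and within Control alone the values spread more widely than the group means differed (log2 fold change -0.56 ± 0.37). Ifit3 was at 5.90, 8.32, 7.17, 4.12 and 5.20 CPM in BGN replicates 1 to 5, against 6.45, 13.1, 8.73, 10.04 and 6.13 CPM in Control replicates 1 to 5. Within each group the libraries stood in the same order as for Ifit1, with a log2 fold change of -0.55 ± 0.25; the near-identical copy Ifit3b, at 4.45 CPM on average, may share its reads. Ifit2 behaved differently: it was at 19.5 ± 1.69 CPM in BGN libraries, against 20.7 ± 1.70 CPM in Control libraries, with a within-group SD of 0.12 on the log2 scale against 0.58 for Ifit1, and an r of 0.75 with the other members.

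Of the OAS family, which makes or resembles the enzymes that make the second messenger for RNase L, Oasl2 came closest to the pattern of the whole set. Oasl2 was at 52.1, 84.95, 58.8, 44.3 and 47.1 CPM in BGN replicates 1 to 5, against 69.5, 98.03, 89.5, 77.1 and 46.3 CPM in Control replicates 1 to 5, with an r of 0.99 with the mean of the other 37. Control replicates 2 and 3 and BGN replicate 2 were the 3 highest, and BGN replicate 4 the lowest, at a log2 fold change of -0.41 ± 0.25. Oas3 was at 1.98, 2.63, 2.44, 1.93 and 1.05 CPM in BGN replicates 1 to 5, against 3.72, 4.94, 4.52, 3.31 and 1.72 CPM in Control replicates 1 to 5. Here 4 of 5 Control libraries lay above every BGN library, and the estimate, -0.88 ± 0.26, was the lowest of the 38; with 55.2 counts per library on average it is also among the least abundant, and its adjusted p was 0.945 by edgeR. Oas3 passed only when no filter on low counts was applied, with an adjusted p of 0.0145 by edgeR and a range of adjusted p from 0.0145 to 0.9998 over the settings tried. Oas2 was at 2.23, 6.02, 2.44, 1.59 and 2.60 CPM in BGN replicates 1 to 5, against 4.10, 4.28, 5.64, 2.85 and 2.36 CPM in Control replicates 1 to 5. The highest value was BGN replicate 2, and the Control range lay within that of BGN (log2 fold change -0.39 ± 0.37). Oas1a and Oasl1 had log2 fold changes of -0.26 and -0.22; Oas1a has close copies, among them Oas1g at 6.79 CPM, so its counts are uncertain.

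Mx1 and Mx2, dynamin-like GTPases that trap viral nucleocapsids, were scarce. Mx2 was at 2.08, 4.21, 2.999, 1.98 and 1.69 CPM in BGN replicates 1 to 5, against 2.79, 5.74, 2.93, 3.10 and 2.47 CPM in Control replicates 1 to 5. Its highest library was Control replicate 2, and the other Control values lay within the BGN range, at a log2 fold change of -0.42 ± 0.28. Mx1 had 2.80 ± 1.30 CPM in BGN libraries, against 2.76 ± 0.890 CPM in Control libraries, and was the one member with an estimate above 0, at 0.0020 ± 0.29; this sign turned in 8 of 19 alternative settings. Rsad2 makes an antiviral nucleotide analogue from CTP, and Cmpk2 is its neighbour, a mitochondrial nucleotide kinase. Rsad2 was at 5.35, 12.8, 10.2, 5.31 and 6.15 CPM in BGN replicates 1 to 5, against 6.72, 21.03, 10.9, 14.2 and 7.68 CPM in Control replicates 1 to 5. Control replicates 2 and 4 and BGN replicate 2 were the highest, and BGN replicates 1 and 4 the lowest (log2 fold change -0.63 ± 0.40). Cmpk2 was at 9.82, 18.6, 11.5, 7.44 and 11.3 CPM in BGN replicates 1 to 5, against 11.2, 19.2, 14.3, 15.5 and 8.87 CPM in Control replicates 1 to 5. The ranges of both groups nearly coincided, and the log2 fold change was -0.25 ± 0.28.

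**Figure D3:**
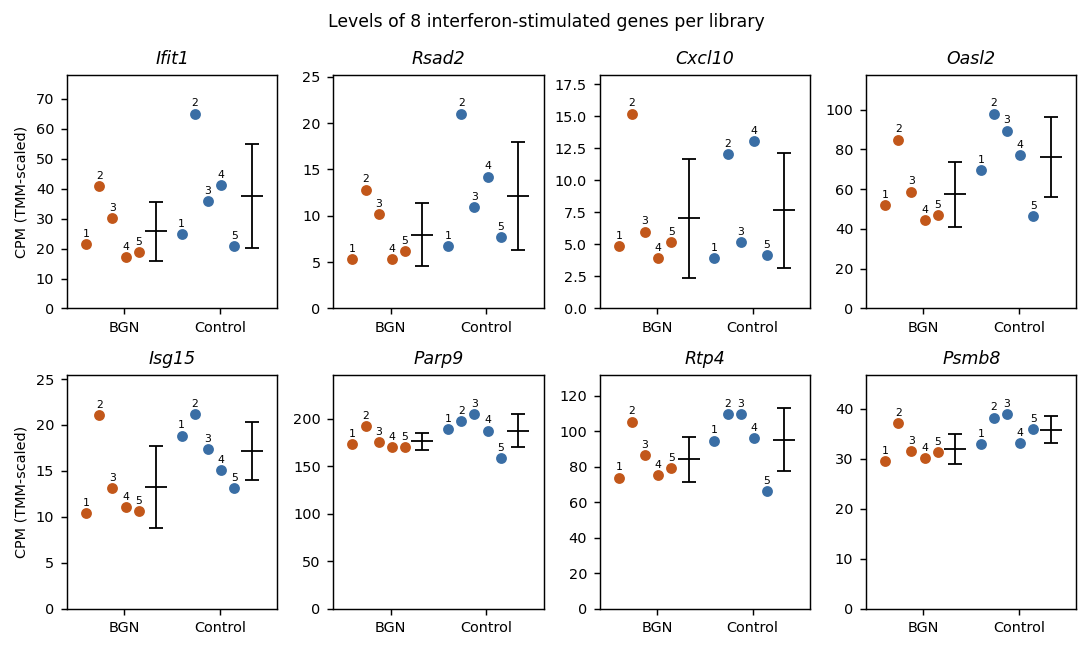
CPM (vertical axes from 0) of 8 members in each library, BGN left of Control; numbers are replicates, and the bars beside the points are mean and SD over 5 libraries. BGN replicate 2 lies within or above the Control range in each panel, from 12.8 CPM for Rsad2 to 192 CPM for Parp9.

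The remaining effectors included both members of highest level per length, Rtp4 and Bst2. Rtp4 was at 73.8, 105, 86.5, 75.2 and 79.3 CPM in BGN replicates 1 to 5, against 94.6, 109.7, 109.6, 95.99 and 66.2 CPM in Control replicates 1 to 5. Control replicate 5 was the lowest of all and Control replicates 2 and 3 the highest, with a log2 fold change of -0.18 ± 0.16. Bst2 was at 31.5, 45.9, 30.9, 28.1 and 33.5 CPM in BGN replicates 1 to 5, against 40.5, 47.4, 51.1, 36.1 and 30.04 CPM in Control replicates 1 to 5. The order was similar, with BGN replicate 4 lowest (log2 fold change -0.28 ± 0.18). Samd9l, an antiviral tRNA-cleaving protein related to a regulator of growth, was at 85.9, 102, 91.6, 88.9 and 74.8 CPM in BGN replicates 1 to 5, against 90.8, 110.1, 114, 99.4 and 69.4 CPM in Control replicates 1 to 5. The BGN range lay within that of Control, with a log2 fold change of -0.13 ± 0.14. Ifi44 had a log2 fold change of -0.29 and Xaf1, an antagonist of the apoptosis inhibitor XIAP, of -0.37. Ifi35 stood apart from this pattern. It was at 27.5 ± 1.85 CPM in BGN libraries, against 29.02 ± 3.21 CPM in Control libraries, its log2 fold change was -0.074 and its r with the other members 0.37, the lowest of the 38.

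Interferon-inducible GTPases attack the membranes around intracellular pathogens. Gbp2 was at 59.3, 72.2, 63.9, 58.4 and 68.8 CPM in BGN replicates 1 to 5, against 73.5, 80.4, 76.2, 79.3 and 58.4 CPM in Control replicates 1 to 5. Of the Control libraries 4 lay above every BGN library and Control replicate 5 was level with BGN replicate 4 at the bottom (log2 fold change -0.19 ± 0.085). Gbp3 and Igtp had log2 fold changes of -0.38 ± 0.20 and -0.31 ± 0.16; exons of Igtp overlap the related Irgm2 on the same strand.

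The antigen processing genes, which cut peptides and carry them to MHC class I, had estimates nearer to 0. Psmb8, an immunoproteasome subunit, was at 29.5, 37.1, 31.6, 30.1 and 31.4 CPM in BGN replicates 1 to 5, against 32.9, 38.2, 38.96, 33.1 and 35.9 CPM in Control replicates 1 to 5. BGN replicate 2 lay within the Control range and the other 4 BGN libraries below all Control libraries, at a log2 fold change of -0.17 ± 0.067. Tap1, a subunit of the peptide transporter into the endoplasmic reticulum, was at 39.1, 51.2, 44.6, 42.3 and 37.5 CPM in BGN replicates 1 to 5, against 44.9, 48.7, 48.5, 44.2 and 39.1 CPM in Control replicates 1 to 5. BGN replicate 2 was the highest of all 10 and BGN replicate 5 the lowest (log2 fold change -0.074 ± 0.078). Psmb9, a second immunoproteasome subunit that overlaps Tap1 on the opposite strand, was at 5.90 ± 0.878 CPM in BGN libraries, against 5.96 ± 0.417 CPM in Control libraries (-0.020 ± 0.12), and its sign turned in 3 of 19 settings.

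Cxcl10, a chemokine that draws T cells and the one chemokine of the set, had the largest within-group SD of log2 CPM, 0.79. It was at 4.86, 15.2, 5.998, 3.92 and 5.20 CPM in BGN replicates 1 to 5, against 3.93, 12.04, 5.16, 13.04 and 4.19 CPM in Control replicates 1 to 5. The high libraries were BGN replicate 2 and Control replicates 2 and 4, the other 7 lay between 3.92 and 5.998 CPM, and the log2 fold change was -0.15 ± 0.52, whose sign turned in 3 of 19 settings.

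Spread between libraries of the same group was a common feature of the members. The median within-group SD of log2 CPM was 0.27 over the 38 members, against 0.0997 over the 11965 tested genes that averaged 50 counts or more. Since low counts alone widen this spread, each member was set beside the tested genes with a mean count within 2-fold of its own: 37 of 38 had an SD above the median of those genes, and 29 above 95% of them. Psmb9 was the one below the median, with 34.2% of genes of similar level having a smaller SD. The highest library exceeded the lowest by a ratio of 1.18 (Trim25) to 4.71 (Oas3), and by at least 2 for 15 members. The widest SDs were those of Cxcl10 (0.79), Rsad2 (0.62), Oas2 (0.60), Ifit1 (0.58) and Oas3 (0.54). Among members matched to a promoter, the 15 with an ISRE core had a median SD of 0.31 (range 0.15 to 0.79) and the 15 without had one of 0.17 (range 0.090 to 0.45), which is a description with no test. These sets were not matched for level, and over the members SD fell with mean CPM (Spearman rho -0.67). The median r with the other members was 0.87 with the core and 0.89 without it.

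**Figure D4:**
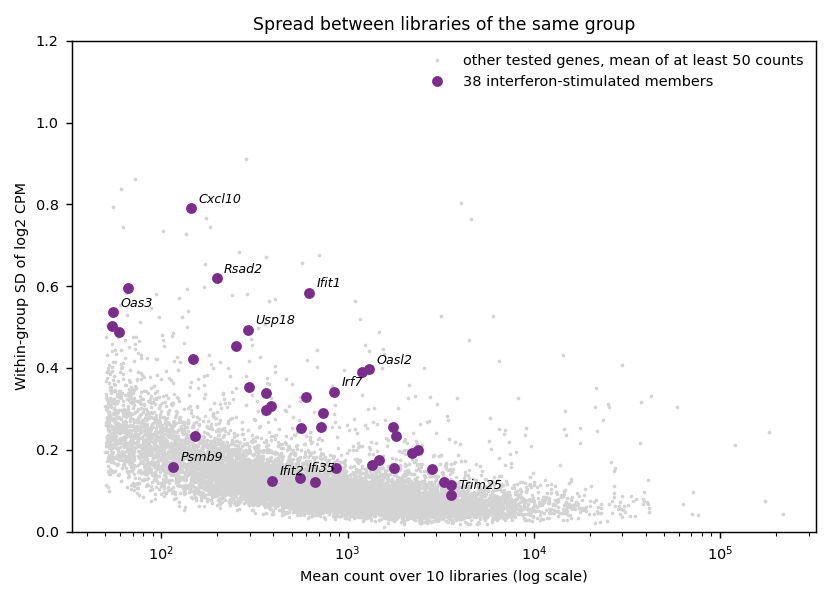
Within-group SD of log2 CPM (vertical axis) against the mean count over 10 libraries (horizontal, log scale) for the 11965 tested genes that averaged 50 counts or more, members in purple. Most members lie at the upper edge of the cloud, Cxcl10 at 0.79, while Psmb9 at 0.16 and Ifit2 at 0.12 lie inside it.

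The members varied together. With the group means removed, so that BGN and Control could not differ, the median Pearson r between a member and the mean of the other 37 was 0.88 over 10 libraries and the median Spearman rho 0.87; 30 of 38 had an r of at least 0.8. These values are a description: the 10 points are the same libraries for each gene, with the same depth and handling. Without the pair of libraries farthest from the median, BGN replicate 2 and Control replicate 5, the median r was 0.83. Of the 703 pairs of members 700 had an r above 0, with a median of 0.78. Highest were Oasl2 (0.99), Parp14 (0.97) and Stat2 (0.96), and lowest Ifi35 (0.37), Mx1 (0.56), Psmb9 (0.63) and Psmb8 (0.66). The slope on the other members differed by gene: per unit of log2 in the mean of the other members, Cxcl10 moved by 2.39, Ifit1 by 2.08 and Rsad2 by 1.99, against 0.303 for Trim25 and 0.338 for Ifit2. At a similar r this slope rises with the SD of the gene, so it largely repeats the ranking by SD.

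Other genes of the pathway fell into those that shared this variation and those that did not. Among 52 further interferon-stimulated genes, 46 were tested, 0 were called in either direction, 45 had estimates below 0 and 1 above (median -0.19), and 23 of the 41 with at least 50 counts had an r of at least 0.8 with the member mean. Of all tested genes, 52% had estimates below 0. The pathway lists, too, were chosen with earlier results of these data known, and many of these genes vary with the members. Their signs are therefore not separate evidence of a lower level in BGN. Ifitm3, which blocks viral entry at endosomes, was the most abundant by count, at 315 ± 21.7 CPM in BGN libraries, against 345 ± 37.6 CPM in Control libraries (log2 fold change -0.13, r 0.81). Shisa5 had 213 ± 19.9 CPM in BGN libraries, against 219 ± 18.05 CPM in Control libraries (log2 fold change -0.044, r 0.70). The 6 interferon receptor chains had a median log2 fold change of 0.022, with 5 above and 1 below 0 and 0 called, and a median r of 0.11. Ifngr2, a chain of the interferon-gamma receptor, was at 145 ± 3.78 CPM in BGN libraries, against 142 ± 3.55 CPM in Control libraries. Its partner Ifngr1 was at 91.8 ± 2.72 CPM in BGN libraries, against 90.5 ± 3.40 CPM in Control libraries. Of 9 tested JAK kinases, STATs and IRFs, 5 were above and 4 below 0 and 0 called. The most abundant, Stat3 and Jak1, had an r of -0.49 and 0.11, and Irf1, itself interferon-induced, one of 0.90; Irf1 was named after its value was seen. Feedback inhibitors (5 tested, 0 called, 2 above and 3 below 0) had a median r of -0.15, with Socs3, an inhibitor of JAK kinases, at 105 ± 5.30 CPM in BGN libraries, against 105 ± 9.21 CPM in Control libraries. Pias2, a SUMO ligase, was at 88.9 ± 2.76 CPM in BGN libraries, against 81.4 ± 5.61 CPM in Control libraries. Sensor adaptors and kinases (12 tested, 0 called, 5 above and 7 below 0) had a median r of 0.18. Adar, the RNA-editing enzyme with an interferon-driven promoter, was at 73.2 ± 5.62 CPM in BGN libraries, against 81.01 ± 9.08 CPM in Control libraries (r 0.94), and Tlr3, an endosomal sensor of double-stranded RNA, at 71.3 ± 4.76 CPM in BGN libraries, against 70.1 ± 6.55 CPM in Control libraries (r 0.75). Of the MHC class I heavy chain genes, H2-D1 was at 437 ± 20.9 CPM in BGN libraries, against 479 ± 24.7 CPM in Control libraries. H2-K1 was at 418 ± 24.1 CPM in BGN libraries, against 451 ± 28.1 CPM in Control libraries, and the 10 genes of this list had 9 estimates below 0, a median of -0.097, 0 calls and a median r of 0.45.

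**Figure D5:**
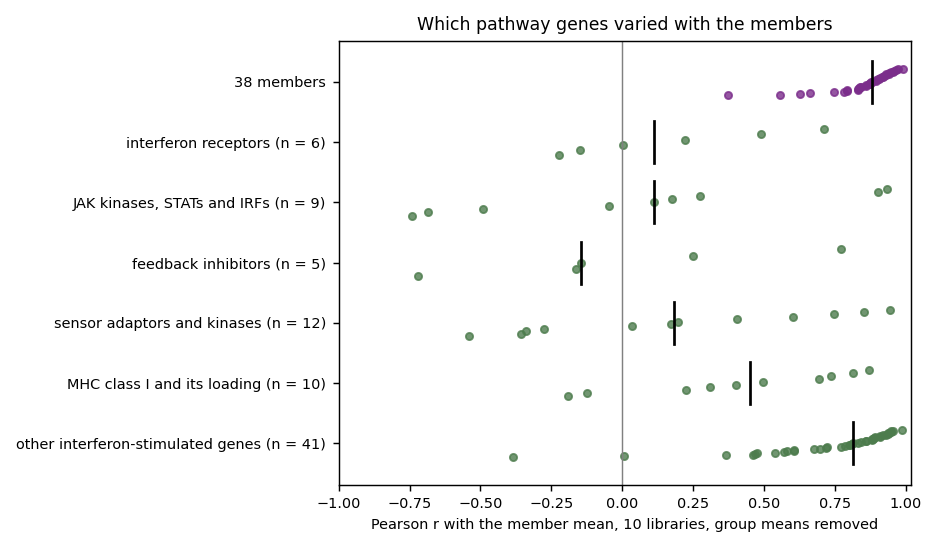
Pearson r with the member mean over 10 libraries, group means removed (horizontal axis), for each member (the gene left out of its own mean) and for the tested genes of 6 pathway lists with at least 50 counts; black bars are medians. The medians are 0.88 for the members, 0.81 for other interferon-stimulated genes and 0.11 for the receptors.

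Across the 11927 other genes with at least 50 counts, 174 (1.46%) had an r of at least 0.8 with the member mean, 29 of them in the pathway lists. The 10 highest were Phf11d (r = 0.99), Scai, Ddx60, Trim30a, Lgals3bp, Adar, Trim30d, Wrn, Slfn2 and Bmpr2 (0.94), of which 6 are in those lists. With BGN replicate 2 and Control replicate 5 left out, their r lay between 0.85 (Wrn) and 0.97 (Phf11d). Phf11d was at 16.7 ± 3.10 CPM in BGN libraries, against 21.4 ± 4.07 CPM in Control libraries, and Ddx60, a helicase that assists RNA sensors, at 16.5 ± 4.55 CPM in BGN libraries, against 21.2 ± 5.26 CPM in Control libraries.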

How the data were processed

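Poly-A selected RNA of 10 samples was sequenced, and the deposited values are raw read counts per gene symbol. The submitters' processing notes list the build GRCm39 and, as tools, HISAT2 2.2.1, HTSeq and DESeq2, with FastQC and cutadapt 1.9.1. The annotation release and whether counting used strand: not given in the sources used here. Groups and replicate numbers came from sample titles.

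The members and gene lists were chosen with earlier results of these data known. edgeR 4.0.16 in R 4.3.3 tested the 14415 genes that passed filterByExpr (TMM scaling, robust quasi-likelihood, treatment as single term, Benjamini-Hochberg over all genes, threshold 0.05), a step checked on simulated counts. The simulated counts had the spread typical of genes of their level, which most members exceed. That check therefore says nothing of the power to call the members. CPM values use TMM-scaled totals; log2 CPM has a prior count of 2. All library pairs differed by more than sampling noise (chi-square per degree of freedom at least 2.43 within groups). Exon lengths came from GENCODE M21 (GRCm38), promoters from RefSeq GRCm38.p6; no count coordinates are given.

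Values in every library are given for the 3 members of highest level per length, the 5 of largest within-group SD, the 5 of smallest p and the most abundant of each role; in each pathway list the 2 most abundant, and the 10 genes of highest and 3 of lowest correlation, are named. Other genes were picked after their values were seen. Alternatives were other scalings, filters and tools (DESeq2 1.42.0, limma 3.58.1), the replicate block and leaving out each library. The limit given for genes with 0 counts covers counting error only, whereas SEs come from the edgeR fit and include the spread between libraries.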

Additional observations from a re-analysis of the deposited data

Results flagged for a closer look

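The 38 members and their mean deviation, in each group, made 78 sets of 5 libraries. In 9 of the 78 sets, the highest library stood far from the rest by Dixon's 95% criterion. Chance flags about 1 in 20 sets of normally distributed values, and these sets are not independent because the members vary together. For single members the criterion was applied to CPM. The share of all tested genes that it flags was not computed, so 9 of 78 is not shown to be unusual. In 8 of the 9 the library was BGN replicate 2, and in 1 it was Control replicate 2. They were Zbp1 in BGN replicate 2 (33.6 CPM, against 22.1 to 24.9 in the other 4); Isg15 in BGN replicate 2 (21.1 CPM, against 10.4 to 13.1 in the other 4); Parp9 in BGN replicate 2 (192 CPM, against 170.03 to 176 in the other 4). Also standing apart were Oas1a in BGN replicate 2 (25.5 CPM, against 15.8 to 16.9 in the other 4), Oas2 in BGN replicate 2 (6.02 CPM, against 1.59 to 2.60 in the other 4), Mx2 in Control replicate 2 (5.74 CPM, against 2.47 to 3.10 in the other 4). The last were Gbp3 in BGN replicate 2 (38.4 CPM, against 22.7 to 25.7 in the other 4), Psmb8 in BGN replicate 2 (37.1 CPM, against 29.5 to 31.6 in the other 4), Cxcl10 in BGN replicate 2 (15.2 CPM, against 3.92 to 5.998 in the other 4). The mean deviation over all 38 members was not among them in either group.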

How the results depend on the processing

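The count of genes called was 0 under every setting but one: without a filter on low counts 3 genes passed, Oas3 among the members (smallest adjusted p 0.0145 by edgeR); the cause was not tested. Unadjusted p-values under 0.05 numbered 694 by edgeR, 746 by DESeq2 and 694 by limma-voom, of which 3, 5 and 3 were members. Without robust estimation, edgeR gave 729 of 14415 genes, 13 of them members. Without the filter on low counts it gave 1549 of 26531 genes, 10 of them members. With the replicate number as a block (replicate block), 0 genes passed. By edgeR, 825 of 14415 genes then had an unadjusted p under 0.05, 18 of the 38 members among them. Because the members vary together, such counts of members do not add up as separate observations. Same-numbered libraries correlated between -0.020 and 0.20 over all genes, and 1 of 5 BGN libraries matched its own number best. Whether same-numbered samples share a culture is not known. The median log2 fold change of the members kept its sign throughout, at -0.33 to -0.13 when single libraries were left out, and 36 to 38 members stayed below 0. Of the 38 members 35 kept their sign in all 19 settings, the exceptions being Mx1, Psmb9 and Cxcl10. The difference in mean deviation ran over -0.35 to -0.17 and the median r over 0.86 to 0.91 without single libraries. Leaving out the 2 farthest libraries was chosen after seeing the data. Members near 55 counts per library (Mx1, Oas3, Mx2) are limited by depth.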

Other observations

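Genes outside the pathway lists also followed or opposed the members between libraries. Scai, a regulator of cell migration, had an r of 0.98 with the member mean (Spearman rho 0.98, 0.94 for r without BGN replicate 2 and Control replicate 5) at 38.04 ± 3.70 CPM in BGN libraries, against 35.7 ± 2.77 CPM in Control libraries. Bmpr2, a BMP receptor, had an r of 0.94 at 307 ± 25.1 CPM in BGN libraries, against 278 ± 22.5 CPM in Control libraries, so its group means stood in the opposite order to those of the members while it varied with them within groups. In the opposite direction, Trappc11 had an r of -0.96 at 77.4 ± 2.19 CPM in BGN libraries, against 77.4 ± 2.57 CPM in Control libraries, Gadd45gip1 of -0.95 at 11.2 ± 1.21 CPM in BGN libraries, against 12.3 ± 1.78 CPM in Control libraries, and Rps4l of -0.94 at 13.1 ± 1.48 CPM in BGN libraries, against 13.3 ± 1.27 CPM in Control libraries. None of these genes was called between BGN and Control. They were picked as the extremes of 11927 genes over 10 libraries and carry no test.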
